A study of Arabidopsis thaliana with 6 samples.

Results

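The genes described here build or remodel the plant cell wall. They were taken by symbol: every probe set with exactly 1 gene in the platform annotation whose symbol begins with a wall family name (XTH, EXPA, EXPB, EXLA, EXLB, EXT, HRGP, LRX, PRP, AGP, FLA, CESA, CSL, TBL, GAUT, PME or IRX). The rule found 65 of 22746 probe sets, control probe sets left aside, each for a different gene. Of these, 62 belong to wall families. The other 3 share only letters with them: PMEAMT is a phosphoethanolamine methyltransferase of membrane lipid synthesis, and PRP39 and PRP39-2 are named after a splicing factor of yeast. No probe set with 1 gene carried an EXT, LRX, AGP, FLA or CESA symbol, so no gene with such a symbol was analysed here. HRGP1, described below, is of the extensin type. A further 2 probe sets each stand for a pair of expansin genes and were left out.

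The samples were 1 cm root tips of Arabidopsis thaliana seedlings that had grown for 7 days in darkness on sucrose medium. The dark group (3 arrays) stayed dark for 1 more hour, and the red light group (3 arrays) received 1 h of red light at 12 to 14 µmol per square metre and second, with its peak at 630 nm. No strain or genotype is given in the labels. Each sample pooled tissue from several plates, and the values are MAS5 signals, the linear output of the Affymetrix software for 1 probe set on 1 array.

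Growing plant cells are enclosed by cellulose microfibrils that are coated and tethered by xyloglucan and embedded in pectin. Expansins (EXPA, EXPB) loosen this network without cutting it, XTH enzymes cut xyloglucan chains and rejoin them, CSLC proteins make the xyloglucan backbone, CSLA proteins make mannans, and TBL proteins include the enzymes that acetylate wall polysaccharides. Root hairs are single epidermal cells that grow at their tip, and EXPA7, EXPA18 and XTH26 are known for expression in them. CSLD2, a cellulose synthase-like protein, also acts in root hair growth.

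The arrays fell into classes that cross the treatment. The labels do not name these classes, and what sets them apart, RNA quality included, was not tested. Differences between the classes are given below as differences in array signal, and not as expression differences between kinds of sample. The ratio of the 3' to the 5' control signal of GAPDH ran from 20.2 to 26.2 in the high-ratio class, which holds dark 1, dark 3 and red light 1. It ran from 0.981 to 1.45 in the low-ratio class, which holds dark 2 together with red light replicates 2 and 3. Changes are therefore given from a limma fit with group alone and from one with array class as a second term. They are on the log2 scale, as red light minus dark, with the standard error of the fit (n = 3 arrays per group).

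Geometric mean signals of the wall genes ran from 3.89 to 5815, and 42 of 62 (67.7%) passed the brightness filter for testing, a geometric mean signal of 88.4, against 60% of all probe sets. All 3 members outside the wall passed it too. Probe sets differ in brightness for the same amount of RNA, so signals are given per probe set and do not rank the genes by transcript number. The brightest probe set among the wall genes was that of EXLB1, an expansin-like gene whose wall activity is not established, at a geometric mean of 5815 over the 6 arrays. HRGP1, a hydroxyproline-rich glycoprotein of the extensin type, followed at 3637 with a probe set of the x type, which other transcripts may also bind. XTH19 reached 2395 and CSLD2 1445. Of the XTH genes 7 of 9 passed, of EXPA 7 of 10, of EXPB 2 of 4, of the expansin-like EXLA and EXLB genes 3 of 4, of CSL 6 of 7 and of TBL 15 of 22. The 3 root hair genes all passed, with geometric means of 212 to 763.

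**Figure D1:**
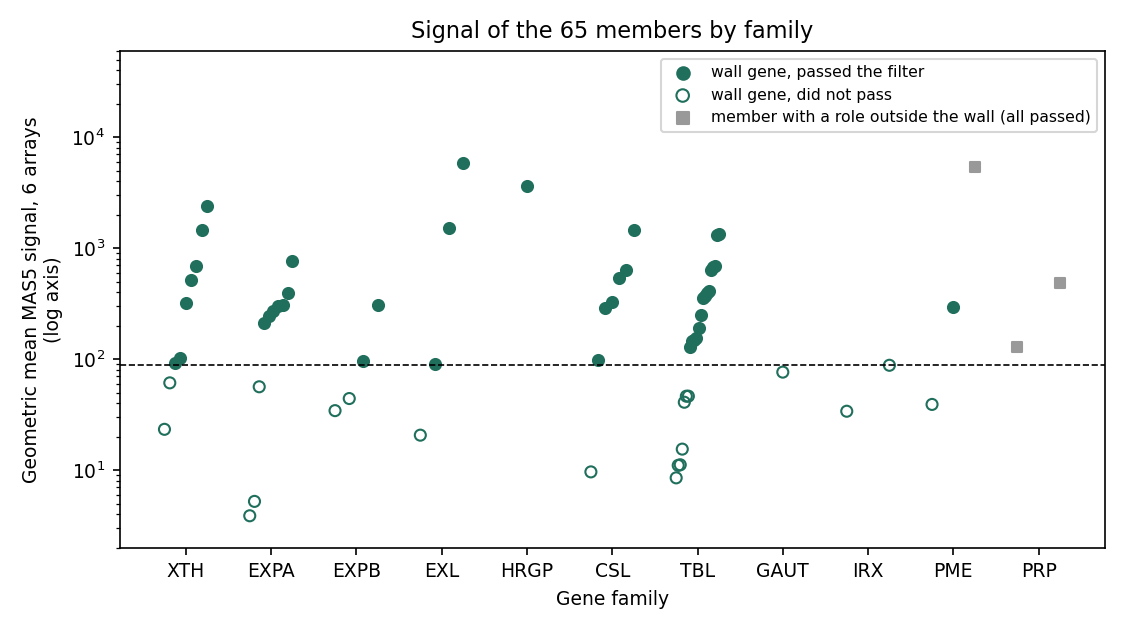
Geometric mean MAS5 signal of the 65 members over 6 arrays (y, log axis) by family (x), with the filter at 88.4 as a dashed line. Filled circles are wall genes that passed, open circles wall genes that did not, and grey squares the 3 members with roles outside the wall. EXLB1 stands highest at 5815 and EXPA21 lowest at 3.89.

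The other 20 wall genes were not tested. EXPA21 and EXPA24 had geometric means of 3.89 and 5.24, and CSLA01 of 9.66. Both IRX genes, which act in xylan synthesis of secondary walls, lay below the filter, IRX15 at 34.0 and IRX15-L at 88.1, just under the limit. The dimmest members that passed were EXLA2 at 90.6 and XTH20 at 93.2. GAUT15, of the galacturonosyltransferase family of pectin synthesis, was at 76.5, and PME61, a pectin methylesterase, at 39.1.

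No wall gene passed the test for red light. With group alone limma called 0 of 42, where it called 0% of all 13647 probe sets tested, and with array class also 0 of 42, where it called 0.125%. In that fit 0 wall genes were higher, beside 0.0806% of all probe sets, and 0 lower, beside 0.044%. An unadjusted p under 0.05 was reached by 1 of 42 with group alone (1.89% of all probe sets) and by 5 of 42, or 11.9%, with array class (6.88% of all). Those 5 were HRGP1, XTH26 and EXPA18 with changes below 0, and EXPA4 and TBL37 with changes above 0. The median change of the 42 was -0.047 with group alone and -0.096 with array class, beside -0.015 and -0.030 over all probe sets tested. For 3 of 42 (7.14%) the arrays of both treatments were fully separate, against 6.16% of all probe sets. These were CSLA03 and TBL37 on the higher side (2.23% of all) and HRGP1 on the lower side (3.93% of all).

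**Figure D2:**
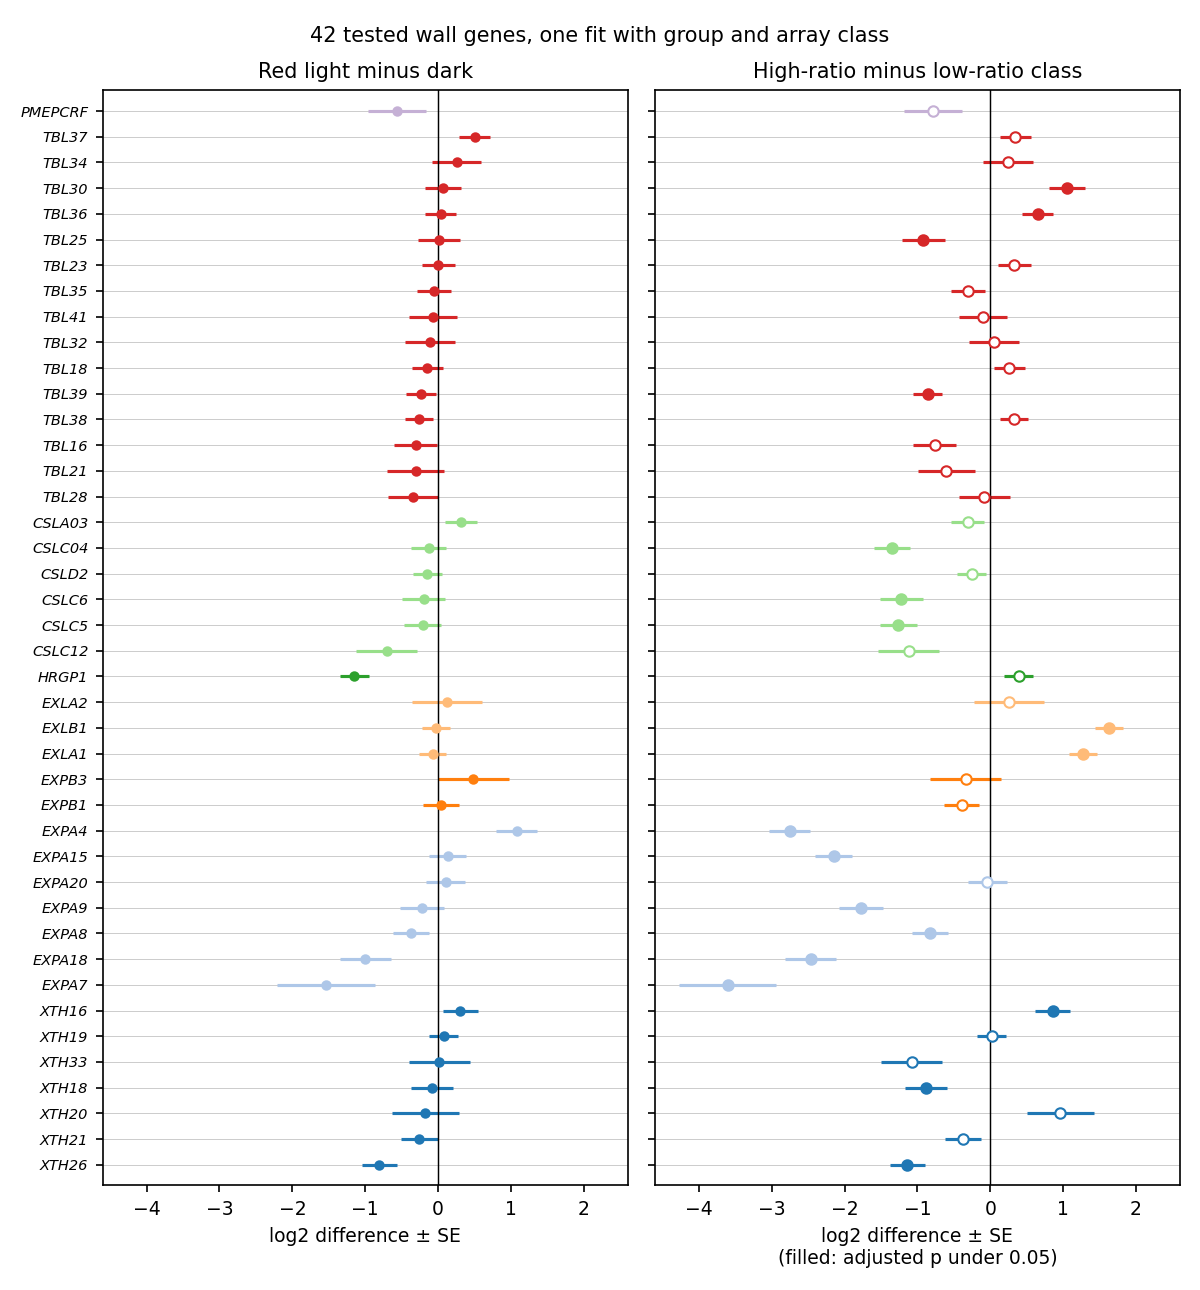
Differences on the log2 scale with standard errors for the 42 tested wall genes (y, coloured by family), from the limma fit with group and array class. The left panel is red light minus dark, where 0 genes passed the threshold, and the right panel is high-ratio minus low-ratio class, where the 18 filled points did.

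HRGP1 came closest to the threshold. Its signals were 6710, 4189 and 6476 in darkness, for replicates 1, 2 and 3, and 2474, 2492 and 2062 under red light. Every red light array lay below every dark array. The change was -1.28 (SE 0.29, limma adjusted p = 0.999) with group alone and -1.15 (SE 0.20, 2.22-fold, limma adjusted p = 0.0637) with array class. Within the classes it was -1.41 in the high-ratio and -0.89 in the low-ratio arrays. The gene itself did not pass the test between the classes, with a difference of 0.39 (SE 0.20, limma adjusted p = 0.147). With array class its adjusted p in limma ran from 0.0118 to 0.353 over 12 alternatives, and 3 of them, the fits without dark 2, with quantile normalization and with the stricter filter, called it.

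Among the 7 tested alpha-expansins, changes with array class ran from -1.54 to 1.08, with a median of -0.22, and none passed the test. EXPA4 had signals of 72.0, 526.6 and 89.2 in darkness and 164.8, 1492.7 and 875.0 under red light. Its groups overlapped, because dark 2 lay above red light 1, but inside each class every red light array was above every dark array. Each class sets 1 array against 2, and this pattern was not counted over all probe sets. With array class the change was 1.08 (SE 0.29, 2.11-fold, limma adjusted p = 0.326). It was 1.04 in the high-ratio and 1.12 in the low-ratio class. Its difference between the classes was larger, -2.75 (SE 0.29). With the low-ratio class by itself, where dark 2 is the only dark array and is assumed to vary like the others, EXPA4 was called (limma adjusted p from 0.0103 there up to 1.00 over the alternatives by group alone).

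The root hair expansins EXPA7 and EXPA18 were lowest in red light 1. EXPA7 had signals of 139.6, 588.1 and 164.5 in darkness and 16.6, 600.4 and 668.2 under red light. EXPA18 had signals of 478.8, 1720.5 and 647.4 in darkness and 155.7, 1704.3 and 1390.5 under red light. In both genes red light 1 lay below dark 1 and dark 3 of its own class, and the 3 low-ratio arrays lay above all others. With array class the change was -1.54 (SE 0.67) for EXPA7 and -1.00 (SE 0.35) for EXPA18, and neither passed, with limma adjusted p of 0.730 and 0.625. Without red light 1, which leaves the low-ratio arrays to set the change, these values became 0.11 (SE 0.34) and -0.16 (SE 0.30). Without dark 2, which leaves red light 1 against its class, the values with array class were -3.19 and -1.84 and both were called, with limma adjusted p of 0.00246 and 0.00939 (up to 1.00 over the alternatives). By group alone neither array left the sign as it was. EXPA7, at -0.34 over all arrays, became 1.41 without red light 1 and 0.31 without dark 2. EXPA18, at -0.18, became 0.92 and 0.37. Leaving out dark 2 thus gave values below 0 with array class and above 0 by group alone.

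A test of the interaction, added after the data were seen, asked whether the change differed between the classes. The change of EXPA7 in the high-ratio class minus that in the low-ratio class was -3.30 (SE 0.57, limma adjusted p = 0.0145). The signal of 16.6 in red light 1 lies below the filter of 88.4, and no detection call was used. With a pseudocount of 16 the difference was -2.47 (SE 0.51, limma adjusted p = 0.0403). EXPA7 was the only wall gene of 42 called, where 0.843% of all probe sets were. EXPA18 had a limma adjusted p of 0.113 there. The counts of wall genes and of all probe sets called in it changed over the alternatives. On the high-ratio side this test rests on red light 1 as the lone red light array, and on the low-ratio side on dark 2 as the lone dark array. The adjusted p in limma ran from 1.74e-05 to 0.155 over 8 alternatives, and the call was lost with plain eBayes, without red light 2 and without red light 3.

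**Figure D3:**
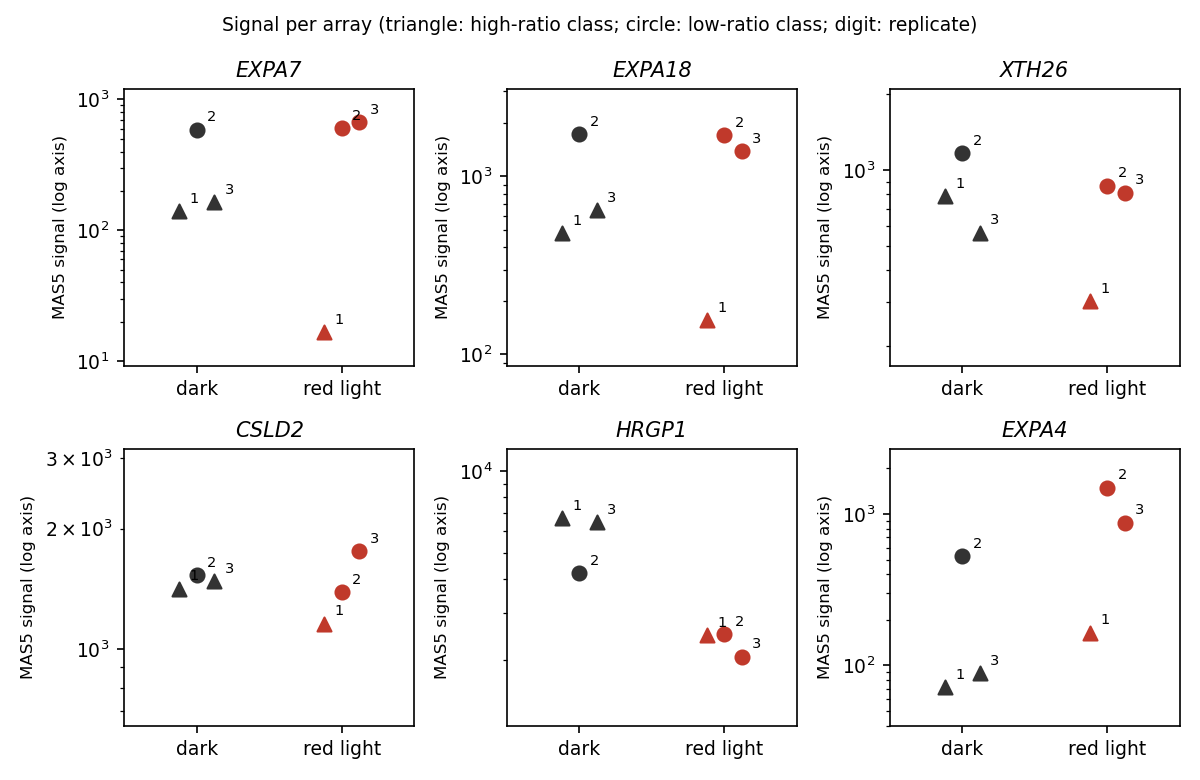
MAS5 signal of 6 wall genes on each array (y, log axis) for dark (black) and red light (red), with triangles for the high-ratio class, circles for the low-ratio class and the replicate number beside each point. EXPA7 in red light 1, at 16.6, lies apart from all other arrays, and HRGP1 is the gene whose treatments do not overlap.

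XTH26 shared the low value of red light 1. Its signals were 789.9, 1163.2 and 565.4 in darkness and 302.0, 867.6 and 812.4 under red light. The groups overlapped through dark 1 and dark 3. The change with array class was -0.81 (SE 0.24, 1.75-fold, limma adjusted p = 0.439), -1.15 within the high-ratio and -0.47 within the low-ratio arrays. CSLD2 was also lowest in red light 1 but spread less. Its signals were 1417, 1533 and 1481 in darkness and 1158, 1387 and 1758 under red light, with a change of -0.15 (SE 0.20). A low value in red light 1 was not particular to root hair genes. EXPA8 and PMEPCRF were also lowest there, while XTH19 was highest there. The mean log2 signal of the tested wall genes was 8.28 in red light 1, against 8.50 to 8.93 on the other arrays. How many genes were lowest there was not counted. Of the 2 named root hair genes outside these families, 1 was below the filter, and limma called 0 for red light in either fit (0 also at an unadjusted p under 0.05). The changes of EXPA7, EXPA18, XTH26 and CSLD2 did not pass the test over all arrays, and their lowest values come from 1 array, red light 1. Signals of pooled root tips also cannot tell the number of root hair cells from the amount of a transcript per cell.

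The 8 shoot tissue markers with a named probe set had a summed signal of 1499 to 2546 in the dark and of 955 to 3260 in red light, and the highest sum was that of red light 1. The dimmest single marker value was 9.70, and no detection call was used to tell which marker transcripts were present. Of the 7 tested, 4 passed the class test, all 4 higher in the high-ratio class, where 14.9% of all probe sets were called higher. PSBY, RCA and LHCB4.1 did not pass, at 1.12 (SE 0.47), -0.15 (SE 0.56) and -0.036 (SE 0.25). LHCB4.2, which was not tested, lay the other way, at 9.7 to 59.3 in the high-ratio and 60.6 to 160.2 in the low-ratio arrays. EXPA7, EXPA18 and XTH26 were lower in the high-ratio class. The part of the shoot markers in their values was not tested. The root tip list had 1 named probe set, that of PYK10, a beta-glucosidase abundant in roots. Its signals ran from 15318 to 40658. It too was higher in the high-ratio class, by 0.79 (SE 0.24, limma adjusted p = 0.0235), but stood at -0.11 with quantile normalization.

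None of the other 6 tested XTH genes reached an unadjusted p under 0.05. Over all 7 the median change with array class was -0.079. XTH19 had signals of 2008, 2463 and 2576 in darkness and 2644, 2178 and 2574 under red light. These values interleave, and the change was 0.080 (SE 0.20). XTH18, its neighbour by locus number, had 824.0, 1796 and 1710 in the dark against 922.0, 2342 and 1833, and a change of -0.079 (SE 0.29). XTH20, the dimmest tested, had a change of -0.17 (SE 0.46), and XTH16 of 0.31 (SE 0.24). XTH21 and XTH33 stood at -0.26 (SE 0.25) and 0.014 (SE 0.42).

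In the cellulose synthase-like family, 5 of 6 tested members had a change below 0 with array class, and none passed. In the same fit 26 of 42 wall genes and 7393 of 13647 probe sets tested were below 0. The 4 CSLC genes, of xyloglucan backbone synthesis, all lay between -0.71 (CSLC12, SE 0.42) and -0.13 (CSLC04, SE 0.24). With group alone 3 of these 4 were above 0, so their sign depends on the class term. The mannan synthase gene CSLA03 was the exception, with signals of 427.6, 705.1 and 549.2 in darkness and 707.2, 759.9 and 738.6 under red light. Its treatments did not overlap, though dark 2 and red light 1 differ by little, and its change was 0.32 (SE 0.22, limma adjusted p = 0.844).

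The TBL family was the largest. Its 15 tested members had changes with array class from -0.34 to 0.50, with a median of -0.075 and 6 above 0. TBL37 had the largest change, with signals of 730.6, 473.0 and 653.4 in darkness and 852.0, 732.7 and 810.4 under red light. All red light arrays exceeded all dark arrays, the nearest by 732.7 to 730.6. The change was 0.50 (SE 0.21, 1.42-fold, limma adjusted p = 0.692). TBL39 and TBL38, the brightest of the family, had changes of -0.23 (SE 0.20) and -0.26 (SE 0.20). Of the genes known from xylan acetylation, TBL28 and TBL32 had changes of -0.34 (SE 0.34) and -0.11 (SE 0.35). TBL30, TBL34 and TBL35 had changes of 0.071 (SE 0.25), 0.25 (SE 0.34) and -0.058 (SE 0.24).

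The expansin-like and beta-expansin genes gave changes near or within their errors. EXLB1 had 11290, 3032 and 10438 in darkness and 9198, 3801 and 3096 under red light, which sorts by class and not by treatment. Its change was -0.030 (SE 0.19), and that of EXLA1 was -0.073 (SE 0.19). EXPB3 had a change of 0.49 (SE 0.49), and EXPB1 of 0.037 (SE 0.24). PMEPCRF, the pectin methylesterase that was tested, had 365.4, 314.8 and 315.5 in darkness and 123.7, 522.3 and 298.2 under red light. It was again lowest in red light 1, and its change of -0.57 (SE 0.40) was -1.46 in the high-ratio and 0.33 in the low-ratio class.

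**Figure D4:**
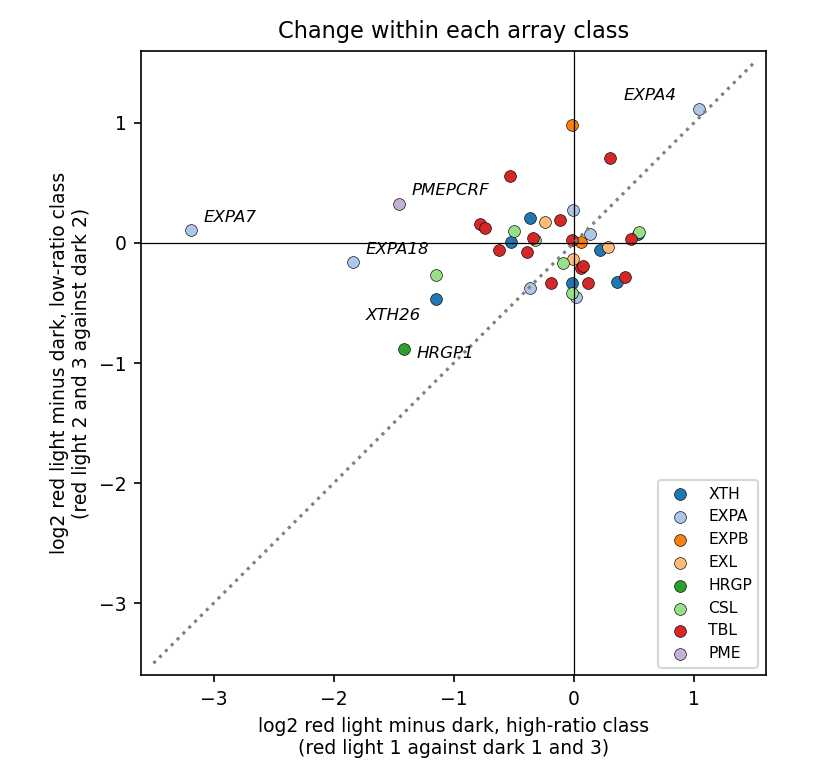
Change on the log2 scale within the high-ratio class (x, red light 1 against dark 1 and 3) and within the low-ratio class (y, red light 2 and 3 against dark 2) for the 42 tested wall genes, coloured by family, with a dotted line where both are equal. EXPA7 lies at -3.19 and 0.11, while HRGP1 and EXPA4 lie near the line, on opposite sides of 0.

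Inside the classes, the change had the same sign for 19 of 42 wall genes (45.2%), beside 48.5% of all probe sets tested. The median change of the 42 was -0.052 in the high-ratio and 0.011 in the low-ratio class.

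More wall genes differed between the array classes than between the treatments. With group in the fit, 18 of 42 wall genes (42.9%) passed the class test, against 36.8% of all probe sets. The signals of the classes were fully separate for 25 of 42 (59.5%), against 51% of all. Lower in the high-ratio class were 13 of 42 (31.0%, against 21.9%), and higher were 5 of 42 (11.9%, against 14.9%). Of the 7 tested alpha-expansins, 6 were lower in the high-ratio class, with EXPA7 at -3.61 (SE 0.67), EXPA4 at -2.75 (SE 0.29), EXPA18 at -2.47 (SE 0.35), EXPA15 at -2.15 (SE 0.25), EXPA9 at -1.78 (SE 0.30) and EXPA8 at -0.83 (SE 0.25). EXPA20 alone did not pass, at -0.042 (SE 0.27), with signals of 220.9 to 297.2 on all arrays. The mean log2 signal of the tested alpha-expansins was 7.02 to 7.64 in the high-ratio arrays and 9.22 to 9.40 in the low-ratio arrays.

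Over all probe sets tested, limma called 36.8% in the class test, 14.9% with larger and 21.9% with smaller values on high-ratio arrays. Whether any family departs from these shares was not tested. Of the 3 tested expansin-like genes, 2 were higher in the high-ratio class. EXLB1 was higher there by 1.63 (SE 0.19) and EXLA1 by 1.27 (SE 0.19), while EXLA2 did not pass, at 0.26 (SE 0.48). The CSLC genes were lower there by a median difference of -1.24, and 3 of 4 passed, CSLC04 at -1.35 (SE 0.24), CSLC5 at -1.26 (SE 0.25) and CSLC6 at -1.22 (SE 0.30). CSLC12 stood at -1.12 (SE 0.42, limma adjusted p = 0.0568). Of the 7 XTH genes, XTH26 at -1.14 (SE 0.24) and XTH18 at -0.88 (SE 0.29) were lower, and XTH16 at 0.86 (SE 0.24) was higher. The TBL family held members on both sides, with TBL25 at -0.92 (SE 0.29) and TBL39 at -0.86 (SE 0.20) lower, TBL30 at 1.05 (SE 0.25) and TBL36 at 0.65 (SE 0.21) higher, and the other 11 not called. In absolute size the class difference exceeded the red light change in 33 of 42 wall genes (78.6%), and in 78.0% of all probe sets tested.

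The 3 members with roles outside the wall gave 0 calls for red light. PMEAMT had signals of 5020 to 6511 on all arrays and a change of -0.060 (SE 0.19). PRP39 and PRP39-2 stood at -0.48 (SE 0.26) and 0.31 (SE 0.45), and PRP39 was lower in the high-ratio class, at -1.95 (SE 0.26).

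Wall genes outside these families were barely covered by named probe sets. Of 5 named genes for wall sensing, 3 were tested and 0 were called for red light in limma (0 also at an unadjusted p under 0.05). The receptor kinase FER, which binds RALF peptides and senses wall state, gave signals of 2112, 3876 and 1908 in darkness and 2137, 4565 and 4413 under red light. These values again sort by class, and the change with array class was 0.15 (SE 0.18). THE1, a receptor kinase that responds to impaired cellulose synthesis, had a change of 0.27 (SE 0.22), and the peptide gene RALFL33 of -0.36 (SE 0.22, limma adjusted p = 0.834). USP, a pyrophosphorylase that supplies nucleotide sugars, had a change of -0.034 (SE 0.22). AT5G66390 (PRX72), a peroxidase of lignin formation, had a change of -0.13 (SE 0.29). The lists for cellulose synthesis partners and other hemicellulose enzymes had 0 named probe sets, and the pectin list 1, ADPG1, which was below the filter.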

How the data were processed

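Per the submitters' processing notes, the authors made the values with MAS5. They deposited 1 linear intensity per probe set and array, and with the extremes trimmed the means were 500.04 to 500.06, as a single scaling factor per array gives. For MAS5, the version and the detection calls are not given in the sources used here, nor is the array build. The labels call the samples biological replicates.

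Intensities were taken as log2 without a pseudocount. Of 22810 probe sets, 64 controls were set aside. Probe sets with a mean log2 above the 40th percentile (13647) were fitted with limma 3.58.1 (eBayes with trend and robust, statmod 1.5.0, R 4.3.3), 2-sided, with Benjamini-Hochberg adjustment over all 13647 and a threshold of 0.05. One fit had group alone (4 residual degrees of freedom) and one added array class (3), set by a GAPDH ratio above 5. The number of arrays limits the precision: the median standard error was 0.38 and 0.27. On simulated data the fit with group alone called none of the planted changes, and the fit with array class called mainly the larger ones. The simulated settings are not given here, so no power for these arrays is read from this. Symbols came from the platform annotation (13513 probe sets with 1 gene, 503 with several, 8730 not listed), and all 65 matched the RefSeq table of TAIR10.1, used for names only.

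The members, the lists and the array class term were chosen with earlier results of these data known. Named genes were EXPA7, EXPA18, XTH26, any called member, per family the brightest tested member and the largest absolute moderated t of either fit, and per list the largest with array class. Others are named inside family descriptions and were chosen after their values were seen. Alternatives were quantile normalization, a pseudocount of 16, no filter, a filter at the 60th percentile, plain eBayes, a replicate block, each class alone and each array left out. The result of 1 root hair list gene is not reported here.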

Additional observations from a re-analysis of the deposited data

Results flagged for a closer look

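EXPA7 was singled out because its change in red light differed between the array classes. The test of this was added after the data were seen. Its call was lost with plain eBayes, without red light 2 and without red light 3. The change in the high-ratio class minus that in the low-ratio class was -3.30 (SE 0.57, limma adjusted p = 0.0145), with changes of -3.19 and 0.11 in the classes. It was -2.47 (SE 0.51, limma adjusted p = 0.0403) with a pseudocount of 16, since the signal of red light 1, 16.6, is low. The high-ratio class holds a single red light array (red light 1) and the low-ratio class a single dark array (dark 2), so the difference rests on single arrays and could not be fitted without either. The summed shoot marker signal of red light 1, 3260, was the highest of the 6 arrays. RCA, PSBY, PSAN, SBPASE, PRK and PSBW were each highest there, and LHCB4.1 and LHCB4.2 were not. The part of the shoot markers in the result was not tested.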

How the results depend on the processing

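With group alone the count of all probe sets called stayed at 0 under both filters, quantile normalization, the pseudocount, plain eBayes and the replicate block, and leaving out 1 array gave 0 to 15 (15 without red light 1). Wall genes called stayed at 0 in all of these. The high-ratio class alone gave 162 calls with 2 wall genes (EXPA18 and HRGP1, limma adjusted p of 0.0260 and 0.0172), and the low-ratio class alone gave 274 with 1 (EXPA4). Each class compares 1 array with 2, and the lone array is assumed to vary like the others. With array class the 17 calls became 5 with plain eBayes and 6 to 288 with 1 array left out (6 with red light 2 left out, 9 with red light 3, 30 with dark 3, 75 with red light 1 and 288 with dark 2). Wall genes called went from 0 to 1 with quantile normalization and to 1 with the filter at the 60th percentile, both times HRGP1, and to 0 to 3 with 1 array left out, the 3 being EXPA7, EXPA18 and HRGP1 without dark 2. The cause was not tested.

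The class test gave 2412 to 5259 calls with 1 array left out, in place of 5020, and 9 to 19 wall genes in place of 18, the fewest without red light 1. XTH26 lost its class call there (limma adjusted p = 0.0856). The median class difference of the wall genes, -0.32, became -0.16 with quantile normalization and -0.16 without a filter, and -0.40 to -0.15 with 1 array left out. Of 296 combinations of a named gene and an alternative with array class, 266 kept their direction and their side of the threshold.

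The direction of a change that passes no test is not settled by these arrays. Over the 3 tests, 842 combinations of a named gene and an alternative were computed, and in 78 of them, over 18 genes, the value changed sign. None of the 78 had a limma adjusted p under 0.05 after the change, and PYK10 in the class difference was the only one called before it. Leaving out 1 array gave 56 of the 78, and 19 of these came without red light 1.

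With the high-ratio class alone, values by group alone went for EXPB3 from 0.60 to -0.013, PRP39 from 0.17 to -0.76, TBL39 from 0.054 to -0.39, USP from -0.050 to 0.080 and AT5G66390 from 0.086 to -0.83. With the low-ratio class alone they went for EXPA7 from -0.34 to 0.11, CSLD2 from -0.063 to 0.026, EXLB1 from -0.57 to 0.18, PMEAMT from -0.078 to 0.068, PMEPCRF from -0.30 to 0.33, PRP39 from 0.17 to -0.20, TBL39 from 0.054 to -0.074, XTH19 from 0.073 to -0.057 and PYK10 from -0.17 to 0.49. With array class, quantile normalization took PYK10 from 0.090 to -0.047, and the replicate block took EXLB1 from -0.030 to 0.015, EXPB1 from 0.037 to -0.017, XTH20 from -0.17 to 0.22 and AT5G66390 from -0.13 to 0.020. In the class difference, quantile normalization took PMEAMT from 0.052 to -0.27, XTH19 from 0.022 to -0.0054 and PYK10 from 0.79 to -0.11.

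For genes whose sign changed with 1 array left out, the range over the arrays left out is given. By group alone it was -0.14 to 0.046 for PMEAMT, -0.31 to 0.91 for PRP39, -0.21 to 0.39 for TBL39 and -0.037 to 0.16 for XTH19. It was -0.15 to 0.064 for USP, -1.25 to 1.41 for EXPA7, -0.80 to 0.92 for EXPA18 and -0.70 to 0.063 for XTH26. By group alone the range was -0.22 to 0.081 for CSLD2, -0.68 to 0.18 for CSLC12, -0.79 to 0.25 for PMEPCRF and -0.50 to 0.39 for PSAN. The range was -0.21 to 0.53 for AT5G66390 and -0.57 to 0.13 for PYK10. With array class it was -0.24 to 0.18 for EXLB1, -0.19 to 0.068 for PMEAMT, -0.057 to 0.22 for XTH19 and -0.15 to 0.080 for USP. In the same fit it was -3.19 to 0.11 for EXPA7, -0.32 to 0.026 for CSLD2, -1.46 to 0.33 for PMEPCRF and -0.83 to 0.58 for AT5G66390. With array class the range was -0.013 to 0.98 for EXPB3, -0.31 to 0.49 for PYK10, -0.027 to 0.094 for EXPB1 and -0.37 to 0.063 for XTH20. In the class difference it was -0.076 to 0.18 for PMEAMT, -0.065 to 0.16 for USP, -0.83 to 0.16 for EXPB3 and -1.67 to 0.11 for PMEPCRF. The others were -0.12 to 0.16 for XTH19 and -1.34 to 0.065 for AT5G66390.

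Replicate numbers were not taken as pairs. Deviations from the group means correlated at 0.58, 0.64 and -0.32 for numbers 1, 2 and 3, and dark 3 correlated best with red light 1. With a replicate block limma called 0 probe sets by group alone and 17 with array class, and 0 wall genes in both.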
